A study of Arabidopsis thaliana with 15 samples.

Results

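The longest nuclear transcripts of Arabidopsis thaliana were followed through 2 chemistries for capturing NAD+-capped RNA. A gene was taken when its identifier lies on a nuclear chromosome outside the AT2G07 block, its summed exon length was at least 7000 nt, and its counts over all 15 libraries came to at least 100. Of 37361 genes, 69 met this rule. A further 41 nuclear identifiers were as long but stayed under 100 counts, and 40 of those are annotated as pseudogenes. All 69 passed the filter on low counts and were tested. Length and total count chose them, and differences between groups entered only through that total. AT4G02660 had 188 counts in all, of which 35, 37 and 27 fell in the m7G-depleted SPAAC libraries. Without those libraries it would not have met the rule. It is counted among the longest members and in the BEACH list below.

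All libraries came from poly(A) RNA of wild-type Col-0 seedlings aged 12 days, and each of 5 groups held 3 libraries. For m7G-depleted SPAAC and m7G-depleted CuAAC, RNA was first treated with an antibody against the ordinary m7G cap. In mock SPAAC and mock CuAAC that treatment was a mock one. In both chemistries NAD+-capped RNA is tagged and captured, with a copper-free click reaction in SPAAC and a copper-catalysed one in CuAAC. Mock mRNA is standard mRNA-seq of mock-treated RNA without capture. A capture without the tagging enzyme was not analysed here. Library totals ran from 3806556 to 19798778 counts. The leaf gene CAB1 averaged 30539 ± 3676 CPM, counts scaled by library size, and the root gene PYK10 averaged 1222 ± 29.3 CPM in mock mRNA (SD, n = 3), so both shoot and root RNA were present.

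An NAD+ cap arises when RNA polymerase starts a transcript with NAD+ in place of ATP, so the first base of such an RNA is an adenosine. Very long plant transcripts code for giant scaffolds and enzymes, among them the growth kinase TOR, chromatin remodellers, the spliceosome core, HECT ubiquitin ligases and lipid-transfer proteins. Of the 69 genes, 65 are protein-coding, 3 are pseudogenes and 1 is a long noncoding RNA. The 65 coding genes had a median length of 8200 nt and a median of 22 introns in the longest transcript, against 1777 nt and 3 introns over all 19654 nuclear coding genes tested.

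The bases at the annotated starts of the 6 longest members are shown because an NAD+ cap needs an A there. Each line gives 20 genomic bases upstream in lower case and the first base of a chosen annotated transcript in capitals. The first-numbered transcript was taken, or the longest where there was none. Bases are from the TAIR10.1 RefSeq reference, on the strand of the gene. The annotated genes BIG and AT1G48090 reach further upstream, to 448680 and 17758508, so their lower-case bases may be transcribed.
AT1G67120, chr1:25095638-25095658, minus strand: accgtcaatggaggatttgaC
BIG, chr3:448489-448509, minus strand: cttctttcgcctcgccagaaA
AT5G23110, chr5:7758080-7758100, plus strand: ttgtaacaatcggctttaatA
AT4G17140, chr4:9636873-9636893, minus strand: acacactgcactgcaccgtcA
AT1G48090, chr1:17758444-17758464, minus strand: cttctctcacttcgtttcgtT
AT4G36080, chr4:17078039-17078059, minus strand: tttgagggaacaatggggacT
An annotated start can lie some bases from the one used in seedlings. Over the 65 coding members, 25 (38.5%) began with A, against 37.4% of the 19654 nuclear coding genes tested.

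Together the 69 genes took their largest share of reads in m7G-depleted SPAAC and their smallest in mock CuAAC. Each share is their summed counts, pseudogenes and noncoding RNA included, as a percent of the counts of nuclear protein-coding genes. The m7G-depleted SPAAC libraries gave 1.01, 1.07 and 0.978%. The m7G-depleted CuAAC libraries gave 0.374, 0.453 and 0.379%. Mock SPAAC gave 0.346, 0.372 and 0.400%, and mock CuAAC gave 0.135, 0.165 and 0.146%. Mock mRNA gave 0.482, 0.568 and 0.514%. Each m7G-depleted SPAAC library lay above all others, each mock CuAAC library lay below all others, and m7G-depleted CuAAC overlapped mock SPAAC. The group means were 1.02 ± 0.0473% in m7G-depleted SPAAC, 0.402 ± 0.0442% in m7G-depleted CuAAC, 0.373 ± 0.0271% in mock SPAAC, 0.149 ± 0.0154% in mock CuAAC and 0.521 ± 0.0435% in mock mRNA (SD, n = 3 each). The place of mock mRNA relative to m7G-depleted CuAAC and mock SPAAC depended on the denominator. As a share of all counts, m7G-depleted CuAAC held 0.367 ± 0.0387%, mock SPAAC 0.359 ± 0.0258% and mock mRNA 0.316 ± 0.0482%. Nuclear coding genes made up 90.9 to 96.3% of the counts in the captured libraries and 57.6 to 65.2% in mock mRNA.

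**Figure D1:**
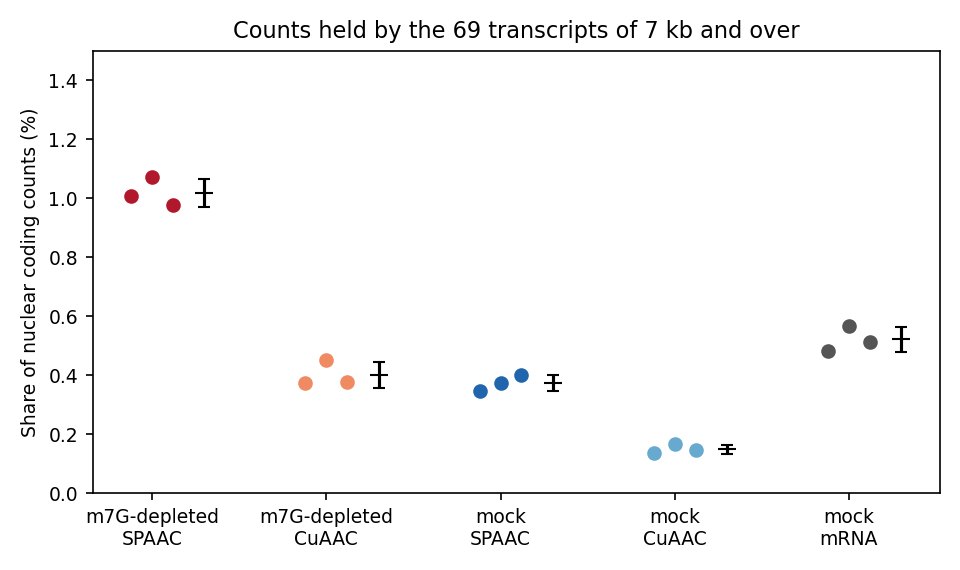
Summed counts of the 69 members, coding or not, as a percent of nuclear protein-coding counts, on the y axis. Points are libraries, the horizontal bar is the group mean and the whisker is 1 SD (n = 3). The 3 m7G-depleted SPAAC libraries sit between 0.978 and 1.07%, and the 3 mock CuAAC libraries between 0.135 and 0.165%.

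A single gene held a large part of the members' counts, though the order of the groups was the same without it. GLT1 encodes NADH-dependent glutamate synthase, an enzyme of ammonium assimilation, and it alone held 22.7 to 25.4% of the members' counts in the captured libraries and 14.8 to 15.8% in mock mRNA. Without GLT1 the shares were 0.767 ± 0.0296% in m7G-depleted SPAAC, 0.307 ± 0.0362% in m7G-depleted CuAAC, 0.285 ± 0.0227% in mock SPAAC, 0.114 ± 0.0122% in mock CuAAC and 0.441 ± 0.0395% in mock mRNA, in the same order.

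After removal of m7G-capped RNA most coding members were higher in both chemistries. A gene counts as called where edgeR's quasi-likelihood test gave a Benjamini-Hochberg adjusted p below 0.05 together with a change of 2-fold or more. In counts of genes below, rose means called higher, so a gene left out may still have a smaller increase. In SPAAC, 59 of 69 members were called higher in m7G-depleted than in mock libraries and 0 were called lower, against 7.37% of all 21456 genes called higher and 9.66% called lower. In CuAAC, 56 were called higher in m7G-depleted than in mock libraries and 0 lower, against 6.32% and 8.24% of all genes. The median log2 fold change of the members was 1.43 in SPAAC and 1.37 in CuAAC, where that of all genes was -0.01 in SPAAC and 0.01 in CuAAC. The CPM values were scaled by TMM factors, so these are changes relative to the other RNAs of the library, and absolute amounts were not measured.

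The m7G-depletion change was visible in single libraries. BIG, a giant protein needed for auxin transport, had 252, 294 and 262 CPM in m7G-depleted SPAAC and 77.2, 97.4 and 92.7 CPM in mock SPAAC. The corresponding values in CuAAC were 107, 133 and 112 CPM in m7G-depleted and 32.6, 42.7 and 41.0 CPM in mock libraries. In both chemistries every depleted library was above every mock library, with log2 fold changes of 1.60 ± 0.12 (SE, adjusted p = 8.8e-10) in SPAAC and 1.60 ± 0.12 (adjusted p = 2.6e-09) in CuAAC. GLT1 had 1995, 2269 and 1941 CPM in m7G-depleted SPAAC and 709, 776 and 775 CPM in mock SPAAC. In CuAAC it had 784, 905 and 761 CPM in m7G-depleted and 282, 344 and 319 CPM in mock libraries. GLT1 rose by a log2 fold change of 1.46 ± 0.09 in SPAAC (adjusted p = 7.7e-11) and by 1.37 ± 0.09 in CuAAC (adjusted p = 3.2e-10), and no library of the compared groups overlapped.

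The highest depletion changes among members with a mean of at least 5 CPM were those of AT3G50380, MBD9 and ILA in SPAAC, and of MBD9, AT5G24350 and AT4G36080 in CuAAC. MBD9, a methyl-CpG-binding domain protein of 7073 nt, averaged 52.7 ± 1.73 CPM in m7G-depleted SPAAC and 16.0 ± 1.76 CPM in mock SPAAC. Its log2 fold changes were 1.72 ± 0.14 in SPAAC (adjusted p = 1.6e-09) and 1.90 ± 0.16 in CuAAC (adjusted p = 4e-09). AT3G50380, annotated as a vacuolar sorting protein, rose by 1.77 ± 0.20 in SPAAC (adjusted p = 2.4e-06). AT5G24350, annotated as a neuroblastoma-amplified sequence protein, rose by 1.82 ± 0.24 in CuAAC (adjusted p = 1.8e-05).

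**Figure D2:**
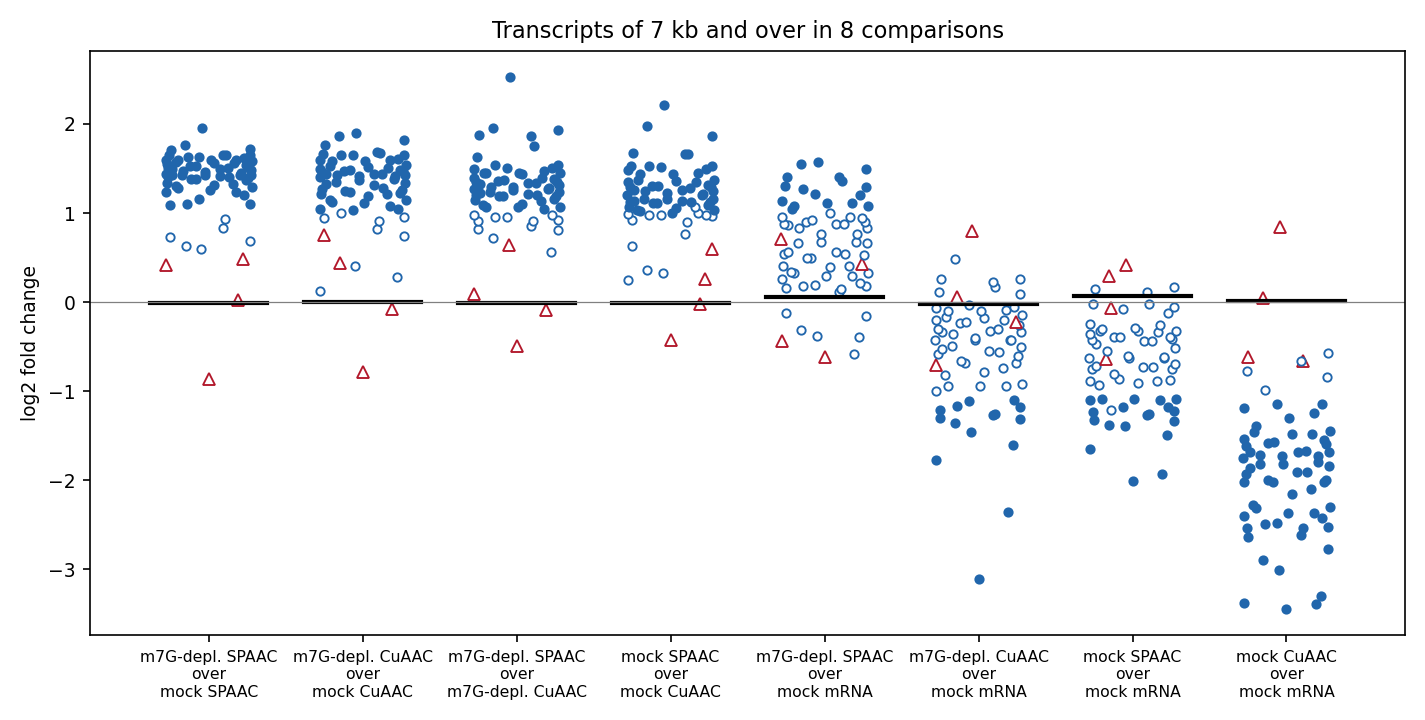
Log2 fold change of each of the 69 members in 8 comparisons, the group named above over the group named below on each label. Filled points passed the call (adjusted p under 0.05 and at least 2-fold), open points did not, triangles are the 4 genes that are not protein-coding, and the black bar is the median of all 21456 genes. Most members sit above 0 after m7G depletion and in SPAAC over CuAAC, and below 0 in mock CuAAC over mock mRNA, and AT3G42052 has the opposite sign in each of these.

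Most coding members were also higher in SPAAC than in CuAAC. In mock RNA, 51 of 69 members were called higher in SPAAC than in CuAAC and 0 lower, against 6.47% of all genes called higher and 0.508% called lower. In m7G-depleted RNA, 53 were called higher in SPAAC than in CuAAC and 0 lower, against 7.3% and 0.895% of all genes. The members' median log2 fold change was 1.16 in mock and 1.25 in m7G-depleted RNA. AT4G17140, a giant pleckstrin homology domain protein of the VPS13 lipid-transfer list, had 180, 189 and 157 CPM in m7G-depleted SPAAC and 56.9, 72.9 and 51.7 CPM in m7G-depleted CuAAC. In mock RNA it had 52.3, 56.1 and 62.1 CPM in SPAAC and 19.2, 21.3 and 18.8 CPM in CuAAC. The SPAAC libraries were higher without overlap in both cases, by 1.54 ± 0.11 (adjusted p = 1.9e-09) in m7G-depleted RNA and 1.52 ± 0.11 (adjusted p = 3.2e-09) in mock RNA. AT1G48090, a calcium-dependent lipid-binding protein of the same list, missed the call in both. Its SPAAC over CuAAC values were 0.98 ± 0.11 in m7G-depleted and 0.98 ± 0.11 in mock RNA, just under a 2-fold change. Under library totals AT1G48090 was called in both, at 1.10 in m7G-depleted and 1.10 in mock RNA.

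Because the SPAAC and CuAAC libraries of mock RNA and those of m7G-depleted RNA share no library, the chemistry difference could be set side by side gene by gene. Across the 69 members Spearman's rho was 0.73 and Pearson's r was 0.88, and across the 65 coding members they were 0.68 and 0.79. These describe genes within the same experiment, which share libraries and length, and carry no p. In 67 of 69 members the 2 chemistry differences lay within 0.5 of each other on the log2 scale. The test of the difference itself, whether m7G depletion acted unlike in SPAAC and in CuAAC, called 0 members in edgeR at an adjusted p under 0.05 with a 2-fold change, against 0.00466% of all genes. At an unadjusted p under 0.05 it picked 3 of 69 members and 828 of 21456 genes, and DESeq2 also called 0 members. The median difference over the members was 0.04 and the widest was 0.83 ± 0.51 for AT4G38780, which averaged 3.33 ± 0.575 CPM in m7G-depleted SPAAC and 0.626 ± 0.348 CPM in mock CuAAC. AT4G38780 is the lesser-expressed copy of the spliceosome protein PRP8, and reads shared with its close relative SUS2 were not examined.

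**Figure D3:**
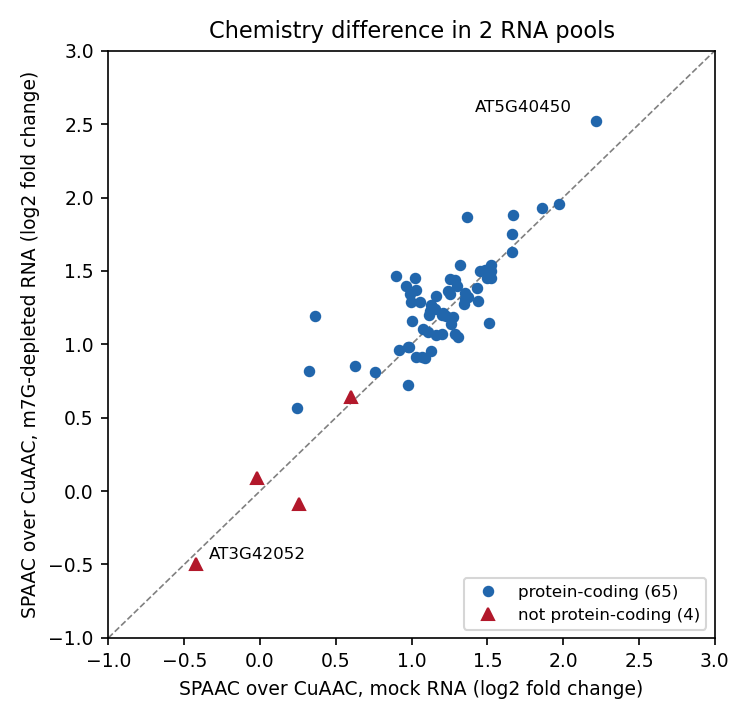
SPAAC over CuAAC, log2 fold change, in m7G-depleted RNA (y axis) against mock RNA (x axis), for 65 coding members (circles) and 4 others (triangles). The dashed line marks equal values. AT5G40450 stands at the upper right with 2.52 in m7G-depleted and 2.21 in mock RNA, and the pseudogene AT3G42052 at the lower left.

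Against mRNA-seq of the same mock-treated RNA, the members were scarce in mock CuAAC and less so in mock SPAAC. In mock CuAAC, 60 of 69 members were called lower than in mock mRNA and 0 higher, against 11.2% of all genes called lower and 5.09% called higher. In mock SPAAC, 19 were called lower and 0 higher, against 5.17% and 1.9% of all genes. The median log2 fold change was -1.81 for mock CuAAC and -0.63 for mock SPAAC. Both comparisons use the same mock mRNA libraries. Under scaling by library totals the median of all genes moved from 0.07 to 0.80 in mock SPAAC against mock mRNA and from 0.01 to 0.62 in mock CuAAC against mock mRNA. Under that scaling 2 members were called lower and 2 higher in mock SPAAC, and 45 lower and 1 higher in mock CuAAC. Among genes whose values are given further on, these calls were lost under library totals for AT1G67120 (-0.94), BIG (-0.63), SYD (-0.56) and ACC2 (-0.37) in mock SPAAC, and for GLT1 (-0.55), EMB2016 (-0.87) and AT3G24880 (-0.98) in mock CuAAC. Relative to the shifted median of all genes, the members' medians were still below it, at 0.08 for mock SPAAC and -1.21 for mock CuAAC. The lower share of nuclear coding counts in mock mRNA, given above, moves with this comparison, and its part was not tested.

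After m7G depletion the place of the members relative to mRNA-seq differed by chemistry. In m7G-depleted SPAAC, 17 of 69 members were called higher than in mock mRNA and 0 lower, against 10.9% of all genes called higher and 13.8% called lower. In m7G-depleted CuAAC, 15 were called lower and 0 higher, against 12.6% and 5.39% of all genes. The medians were 0.67 for m7G-depleted SPAAC and -0.43 for m7G-depleted CuAAC. These counts also depend on scaling. With library totals, 53 members were called higher in m7G-depleted SPAAC than in mock mRNA, and 3 lower and 2 higher in m7G-depleted CuAAC, where the medians of all genes moved to 0.82 and 0.61.

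The gap to mRNA-seq grew with length among the members themselves. The 14 members of 10000 nt or more had a median log2 fold change of -2.53 in mock CuAAC against mock mRNA, with 14 of 14 called lower, and -1.24 in mock SPAAC against mock mRNA, with 10 of 14 called lower. The 32 members from 7000 to under 8000 nt had medians of -1.68 in mock CuAAC and -0.42 in mock SPAAC, with 27 and 4 called lower. Across the 65 coding members, length and the log2 fold change had a Spearman's rho of -0.46 in mock CuAAC and -0.54 in mock SPAAC, given as a description across genes. Length ran with coding length (rho 0.89), so these 2 features cannot be told apart here. The number of introns was nearly unrelated to either of these fold changes, with rho of 0.10 in mock CuAAC and -0.0005 in mock SPAAC. So was GC content, with -0.03 and 0.04. With the m7G-depletion change, introns had a rho of 0.35 in SPAAC and 0.20 in CuAAC, and length had 0.27 and 0.30. The SPAAC over CuAAC change in mock RNA did not follow length inside the group (rho 0.03), and its median was 1.36 at 10000 nt or more and 1.24 from 7000 to under 8000 nt.

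**Figure D4:**
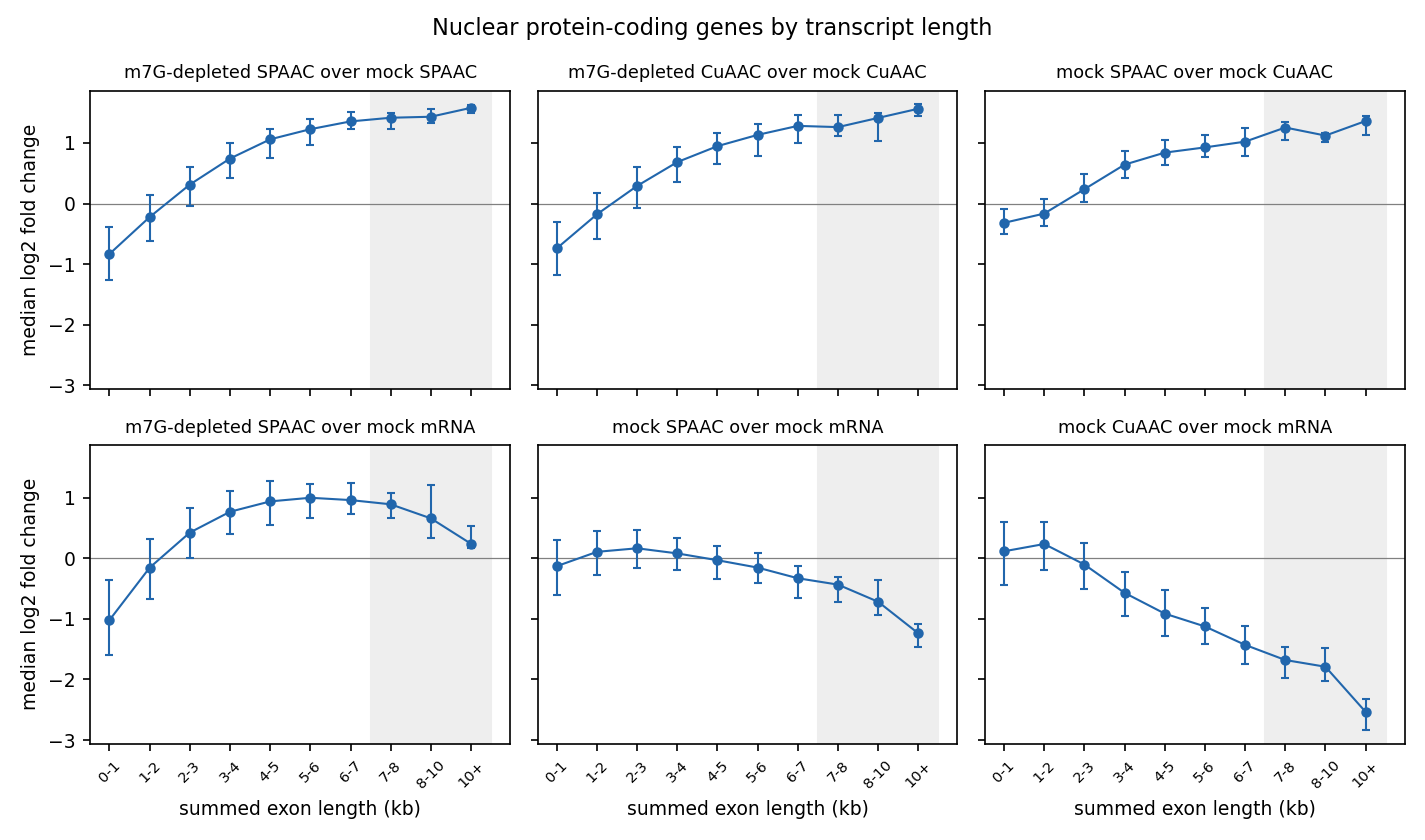
Median log2 fold change of nuclear protein-coding genes by summed exon length in kb, for 6 comparisons. Whiskers span the middle 50% of genes, and the shaded bins of 7 kb and over are the 65 coding members. The change after m7G depletion rises with length, and the mock CuAAC over mock mRNA change falls with it from the 1 to 2 kb bin on. The m7G-depleted SPAAC over mock mRNA change has its highest median at 5 to 6 kb and is lower at 10 kb and over.

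Seen over all coding genes, the members continue trends with length that shorter genes also show, and the comparisons with mock mRNA turn within their trends. Against mock mRNA the median was highest at 2000 to under 3000 nt in mock SPAAC (0.16) and in m7G-depleted CuAAC (0.16). In mock CuAAC it was highest at 1000 to under 2000 nt (0.23). The median depletion change in SPAAC was -0.83 for genes under 1000 nt, 0.74 from 3000 to under 4000 nt, 1.35 from 6000 to under 7000 nt and 1.58 at 10000 nt or more. The corresponding CuAAC medians were -0.74, 0.68, 1.28 and 1.56. For SPAAC over CuAAC in mock RNA the medians of these bins were -0.32, 0.64, 1.02 and 1.36. There 55.1% of genes from 6000 to under 7000 nt were called higher. For mock CuAAC against mock mRNA they were 0.11, -0.57, -1.43 and -2.53, with 79.5% called lower from 6000 to under 7000 nt. In m7G-depleted SPAAC against mock mRNA the median was highest at 5000 to under 6000 nt, at 1.00 over 163 genes with 80 called higher. It was 0.89 over the 30 coding members from 7000 to under 8000 nt and 0.24 over the 14 members of 10000 nt or more, of which 0 were called. In m7G-depleted CuAAC against mock mRNA the same 14 members had a median of -1.05, with 7 called lower. The bins of the members hold 14 to 30 genes, so their medians are less precise than those of the shorter bins.

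With length and GC content fitted as smooth offsets in the edgeR model, the medians of the members lay near 0. They were -0.08 and -0.03 for m7G depletion in SPAAC and CuAAC, -0.02 for SPAAC over CuAAC in mock RNA, and -0.06 and -0.05 for mock CuAAC and mock SPAAC against mock mRNA. By construction such a fit removes what genes of one length share, so length and properties tied to it cannot be told apart. With these offsets 37 calls were made, over 8 comparisons and 11 genes. They were AT5G40450, AT2G42270, AT2G17930, AT4G36080, ACC2, TIL1, AT1G16800 and the 4 members that are not protein-coding. Many ran against the direction found without offsets. In mock CuAAC against mock mRNA 5 members were called lower and 6 higher, and for depletion in CuAAC 5 lower and 0 higher. Under TMM scaling without offsets, TIL1 and the 4 members that are not protein-coding had no call.

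The longest members were called lower in mock CuAAC than in mock mRNA one by one. AT1G67120, the midasin-like ATPase of 16614 nt that is needed for large ribosomal subunit assembly, had 5.48, 8.30 and 8.59 CPM in mock SPAAC, 3.10, 2.83 and 2.78 CPM in mock CuAAC and 22.2, 29.1 and 19.9 CPM in mock mRNA. Neither captured group overlapped mock mRNA. Its log2 fold change was -1.65 ± 0.18 in mock SPAAC (adjusted p = 3.4e-07) and -3.004 ± 0.21 in mock CuAAC (adjusted p = 1.9e-10). After m7G depletion it had 20.6, 24.5 and 18.2 CPM in SPAAC, which overlap mock mRNA, and 8.35, 9.64 and 7.55 CPM in CuAAC. For BIG, of 15766 nt, mock mRNA held 198, 251 and 227 CPM, and the changes to mock SPAAC and mock CuAAC were -1.34 ± 0.12 (adjusted p = 2.6e-08) and -2.54 ± 0.13 (adjusted p = 3.3e-12). AT5G23110, annotated as a RING finger protein of 14494 nt, had -2.15 ± 0.15 in mock CuAAC (adjusted p = 1e-09). In mock SPAAC its value was -0.63 ± 0.14, under the 2-fold threshold.

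Role lists and named genes were chosen with earlier results of these data known. Named after their values were seen are emb2410, ATM, ATR, AT4G02660, AT4G38780, AT1G47860, AT3G60965 and AT3G50370. Role counts are to be read against all 69 members, of which 85.5% rose after depletion in SPAAC and 81.2% in CuAAC, while 27.5% were called lower in mock SPAAC and 87.0% in mock CuAAC than in mock mRNA. The shares of all tested genes were 7.37, 6.32, 5.17 and 11.2%. Under library totals 2 of 69 members were called lower and 2 higher in mock SPAAC than in mock mRNA. In mock CuAAC 45 were called lower and 1 higher, so role counts against mock mRNA depend on scaling. With at most 9 members in a list, no role was tested against the rest. Among the PI3K-related kinases, all 5 listed genes are members. They are TOR, which couples growth to nutrients, the DNA damage kinases ATM and ATR, and AT4G36080 and AT2G17930, relatives of TRA1, a scaffold of histone acetyltransferase complexes. After m7G depletion 5 of 5 were called higher in SPAAC and 4 of 5 in CuAAC, where ATR had an increase under 2-fold, 0.91 ± 0.34 (adjusted p = 0.032). TOR had 197, 204 and 193 CPM in m7G-depleted SPAAC, 62.7, 65.3 and 75.2 CPM in mock SPAAC and 65.3, 75.6 and 71.1 CPM in mock mRNA. The depleted libraries lay above both other groups, and those 2 overlapped. TOR's depletion change in SPAAC was 1.55 ± 0.09 (adjusted p = 3.2e-11), and in mock SPAAC against mock mRNA it was -0.06 ± 0.09 (adjusted p = 0.7). The TRA1 relatives were among the lowest members against mRNA-seq. AT2G17930 averaged 19.8 ± 1.18 CPM in mock SPAAC, 7.29 ± 2.81 CPM in mock CuAAC and 79.9 ± 7.33 CPM in mock mRNA. Its log2 fold changes against mock mRNA, -2.01 ± 0.21 in mock SPAAC (adjusted p = 4.3e-06) and -3.44 ± 0.23 in mock CuAAC (adjusted p = 2.5e-08), were the lowest of all members. AT4G36080 had -1.93 ± 0.13 in mock SPAAC and -3.37 ± 0.15 in mock CuAAC (adjusted p = 2.2e-10 and adjusted p = 3e-13). Both stayed called in mock CuAAC against mock mRNA with length and GC offsets, at -1.18 for AT2G17930 and -1.09 for AT4G36080. Sharing of reads between these close relatives was not examined.

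The chromatin and transcription list has 13 genes, of which 6 are members. After m7G depletion 6 of 6 rose in SPAAC and 6 of 6 in CuAAC, and the 7 shorter genes of the list had 6 and 5 called higher. BRM and SYD are ATPases of SWI/SNF chromatin remodelling complexes. BRM, of 7578 nt, averaged 126 ± 1.83 CPM in m7G-depleted SPAAC, 58.7 ± 2.28 CPM in mock SPAAC and 79.4 ± 3.65 CPM in mock mRNA. SYD, of 11171 nt, averaged 105 ± 1.75, 37.5 ± 3.71 and 90.7 ± 8.90 CPM in the same groups. The longer SYD was called lower in mock SPAAC than in mock mRNA, at -1.27 ± 0.11 (adjusted p = 1.6e-08), and BRM was not, at -0.43 ± 0.08. SDG2, a histone H3 lysine methyltransferase, was among the 3 members of at least 5 CPM with the highest SPAAC over CuAAC change in mock RNA. It had 43.3, 41.5 and 40.2 CPM in mock SPAAC against 11.0, 15.5 and 12.6 CPM in mock CuAAC, a change of 1.67 ± 0.13 (adjusted p = 9.2e-09). CCT, the MED12 subunit of the Mediator kinase module, rose after depletion in SPAAC by 1.49 ± 0.11 (adjusted p = 7.4e-10).

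The splicing, decay and translation list has 7 genes, of which 6 are members. In SPAAC 5 of 6 were called higher after m7G depletion, and in CuAAC 5 of 6. SUS2, the main PRP8 protein at the core of the spliceosome, had 574, 628 and 562 CPM in m7G-depleted SPAAC and 201, 223 and 230 CPM in mock SPAAC. Those groups did not overlap, and the change was 1.43 ± 0.10 (adjusted p = 2e-10). The 2 genes for BRR2, the RNA helicase that unwinds U4/U6 during spliceosome activation, had high SPAAC over CuAAC changes. The main copy, emb1507, had 88.4, 109 and 110 CPM in mock SPAAC and 23.3, 34.7 and 26.3 CPM in mock CuAAC, or 1.86 ± 0.15 (adjusted p = 1.4e-07). In m7G-depleted RNA its value was 1.93 ± 0.15 (adjusted p = 7.8e-08). The second copy, AT2G42270, had 11.6, 10.9 and 10.4 CPM in m7G-depleted SPAAC and 1.64, 3.67 and 3.18 CPM in m7G-depleted CuAAC, or 1.96 ± 0.23 (adjusted p = 6.7e-07). It was the 1 member of this list that was not called after depletion, with 0.93 ± 0.18 in SPAAC. With only 4 introns in emb1507 and 1 in AT2G42270, both have few introns for their length. AT1G02080, the NOT1 scaffold of the CCR4-NOT deadenylase, rose by 1.20 ± 0.12 in SPAAC (adjusted p = 8.9e-08). ILA, a relative of the yeast translation regulator GCN1, rose by 1.65 ± 0.15 in SPAAC (adjusted p = 1.1e-07).

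Of the ubiquitin ligases and large transport factors, 3 of 6 listed genes are members, BIG, UPL1 and UPL2. All 3 rose after m7G depletion in both chemistries and all 3 were called lower in mock SPAAC and in mock CuAAC than in mock mRNA. The mock SPAAC calls depend on scaling. Under library totals BIG lost its call there (-0.63), and 2 of all 69 members were called lower. UPL2, a HECT-type ligase, averaged 251 ± 30.6 CPM in m7G-depleted SPAAC, 89.4 ± 8.33 CPM in mock SPAAC and 190 ± 12.5 CPM in mock mRNA. Its depletion change was 1.49 ± 0.12 (adjusted p = 2e-09). For UPL1 the values were 152 ± 3.48, 58.7 ± 5.08 and 133 ± 12.1 CPM, with a depletion change of 1.37 ± 0.09 (adjusted p = 1.3e-10). The 3 shorter genes of the list, KAK, PRT6 and KEG, had 0 of 3 called lower in mock SPAAC than in mock mRNA and 3 of 3 called lower in mock CuAAC.

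The list of BEACH, VPS13 and bridge-like membrane proteins, which act in membrane traffic and lipid transfer, has 11 genes, of which 9 are members. All 9 rose after depletion in both chemistries. They include AT4G02660, which met the count rule only through its m7G-depleted SPAAC libraries, so its rise in SPAAC is not independent of that rule. In mock SPAAC 6 of 9 and in mock CuAAC 9 of 9 were called lower than in mock mRNA, and in m7G-depleted SPAAC 0 of 9 were called against mock mRNA. These counts depend on scaling. Under library totals 2 of all 69 members were called lower and 2 higher in mock SPAAC. In m7G-depleted SPAAC 53 were called higher and 0 lower. AT2G45540, a BEACH-domain protein of 9932 nt, averaged 132 ± 6.74 CPM in m7G-depleted SPAAC, 49.9 ± 6.31 CPM in mock SPAAC and 120 ± 18.8 CPM in mock mRNA. Its depletion change was 1.40 ± 0.11 (adjusted p = 2.2e-09). For AT1G48090, of 13296 nt, the depletion change in SPAAC was 1.65 ± 0.10 (adjusted p = 8.1e-11).

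The most abundant member, GLT1, is a metabolic enzyme. Per kb of exon GLT1 had 91.6 CPM in mock mRNA, SUS2 30.6, CSI1 27.1, emb1507 22.0, ACC1 21.7 and PHOT2 18.8, and the median over the 65 coding members was 4.81. All 3 metabolic members, GLT1, ACC1 and ACC2, rose after depletion in both chemistries. ACC1, the cytosolic acetyl-CoA carboxylase that makes malonyl-CoA for fatty acid elongation, averaged 348 ± 18.7 CPM in m7G-depleted SPAAC and 129 ± 6.86 CPM in mock SPAAC, a change of 1.43 ± 0.09 (adjusted p = 1.1e-10). Its tandem neighbour ACC2, a plastid-targeted form, averaged 7.11 ± 0.548 and 2.65 ± 0.535 CPM in the same groups, also a change of 1.43 with an SE of 0.24 (adjusted p = 3.6e-05). In mock SPAAC over mock mRNA, ACC1 had -0.39 ± 0.09 and ACC2 had -1.10 ± 0.29, of which ACC2 alone was called. That call was lost without mock SPAAC replicate 2 or without mock mRNA replicate 3, where ACC2 had -0.95 in either case. The difference between them was not tested, and reads that fit both genes were not examined.

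GLT1 was also the member with the highest change of m7G-depleted SPAAC over mock mRNA. In m7G-depleted SPAAC its value against mock mRNA (661, 724 and 710 CPM) was 1.57 ± 0.09 (adjusted p = 1.1e-11). In m7G-depleted CuAAC it was 0.23 ± 0.09 (adjusted p = 0.0485), under 2-fold and so not called, and AT2G24755 (0.80) and MAPKKK7 (0.49) were the highest there. In mock SPAAC it was 0.11 ± 0.09 (adjusted p = 0.39) and in mock CuAAC -1.15 ± 0.09 (adjusted p = 2.2e-09).

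The 3 members in the list on cytoskeleton, cell wall and development are CSI1 and its relative AT1G77460 (CSI3), which link cellulose synthase to microtubules, and DEK1, a calpain needed for the epidermis. All 3 rose after depletion in both chemistries. CSI1 averaged 332 ± 15.7 CPM in m7G-depleted SPAAC and 127 ± 6.67 CPM in mock SPAAC, a change of 1.38 ± 0.10 (adjusted p = 2.3e-10). DEK1 averaged 100 ± 3.52 and 36.7 ± 1.34 CPM, a change of 1.45 ± 0.14 (adjusted p = 1.7e-07). AT1G77460 changed by 1.53 in SPAAC and 1.65 in CuAAC. The callose synthase list holds 6 genes of 6041 to 6993 nt and no member, and 6 of 6 were called higher after depletion in both chemistries. Of all nuclear coding genes from 6000 to under 7000 nt, 82.1% were called higher in SPAAC and 74.4% in CuAAC.

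The DNA replication and repair list has 2 members, of which 1 was called after depletion. AT4G32700, a theta-type DNA polymerase helicase of 7232 nt, averaged 13.7 ± 1.10 CPM in m7G-depleted SPAAC and 4.71 ± 0.539 CPM in mock SPAAC, a change of 1.54 ± 0.19 (adjusted p = 6.4e-07). TIL1, the catalytic subunit of DNA polymerase epsilon, had 20.1, 25.9 and 24.5 CPM in m7G-depleted SPAAC, 12.0, 23.1 and 12.9 CPM in m7G-depleted CuAAC, 12.3 to 15.2 CPM in mock SPAAC, 10.6, 12.7 and 12.5 CPM in mock CuAAC and 16.3, 20.8 and 17.1 CPM in mock mRNA. The m7G-depleted SPAAC libraries lay above both mock captured groups, and m7G-depleted CuAAC overlapped mock SPAAC and mock CuAAC. TIL1 was called in 0 of the 9 comparisons, since no difference reached 2-fold, and its depletion change in SPAAC was 0.73 ± 0.17 (adjusted p = 0.0015). In mock CuAAC over mock mRNA it had -0.57 ± 0.21, the highest of the coding members. The length and GC offsets put TIL1 at 1.26 there, called higher than genes of its length.

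TIL1 is also 1 of the coding members that share much sequence with a gene on the opposite strand, and for some such pairs counting did not keep strands apart. Of 1875 gene pairs that overlap on opposite strands, both above 1000 counts, 29 had identical counts in all 15 libraries. Values of overlapping genes may therefore be uncertain. TIL1 overlaps neighbours by 2151 nt, and its neighbour ADT6 averaged 7.85 CPM in m7G-depleted SPAAC, 7.80 CPM in mock SPAAC, 9.01 CPM in mock CuAAC and 9.97 CPM in mock mRNA. The other coding members with 700 nt or more of such overlap are PHOT2, MAPKKK7, emb2410 and AT1G16800. AT1G16800 had 14.0, 16.5 and 13.0 CPM in m7G-depleted SPAAC and 8.27, 10.3 and 9.63 CPM in mock SPAAC, and 7.11, 9.80 and 7.82 CPM in m7G-depleted CuAAC and 7.67, 8.13 and 6.63 CPM in mock CuAAC. Its depletion change of 0.13 ± 0.17 in CuAAC (adjusted p = 0.57) was the smallest of the coding members. MAPKKK7 overlaps 1810 nt of neighbours that averaged under 1 CPM in every group, and it averaged 83.0 ± 5.54 CPM in m7G-depleted SPAAC, 31.8 ± 1.24 CPM in mock SPAAC and 28.2 ± 1.86 CPM in mock mRNA, and its value in mock SPAAC over mock mRNA, 0.17 ± 0.11, was the highest of the coding members. PHOT2, a blue-light receptor, averaged 282 ± 19.0 CPM in m7G-depleted SPAAC, 133 ± 8.95 CPM in mock SPAAC and 134 ± 3.51 CPM in mock mRNA, and rose after depletion by 1.09 ± 0.08 (adjusted p = 1.1e-09). Its opposite-strand neighbour AT5G58150 averaged 21.2 CPM in m7G-depleted SPAAC, 20.0 CPM in mock SPAAC and 18.4 CPM in mock mRNA. The longest single transcript of PHOT2 is 6518 nt, below the length rule. With the 47 members that have no opposite-strand overlap, 43 rose after depletion in SPAAC and 42 in CuAAC.

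AT5G40450, annotated as an A-kinase anchor-like protein of 9194 nt, had the highest SPAAC over CuAAC change of all members. It had 57.2, 51.1 and 49.7 CPM in m7G-depleted SPAAC and 9.99, 8.57 and 8.88 CPM in m7G-depleted CuAAC. In mock RNA it had 34.7, 31.4 and 38.7 CPM in SPAAC and 7.35, 6.33 and 9.14 CPM in CuAAC, and mock mRNA had 75.4, 84.3 and 77.2 CPM. Every SPAAC library was above every CuAAC library, and mock mRNA was above all of them. Its SPAAC over CuAAC change was 2.52 ± 0.13 in m7G-depleted RNA (adjusted p = 2e-11) and 2.21 ± 0.12 in mock RNA (adjusted p = 4.6e-11). Its depletion change was low, at 0.59 ± 0.11 in SPAAC (adjusted p = 8.7e-05) and 0.28 ± 0.15 in CuAAC (adjusted p = 0.12), so it was called in neither. In mock CuAAC against mock mRNA it had -3.39 ± 0.13 (adjusted p = 3.4e-14). With length and GC offsets it was called in 6 comparisons, with 1.20 and 1.02 for SPAAC over CuAAC in m7G-depleted and mock RNA, -1.58 in mock CuAAC against mock mRNA, -1.05 for depletion in CuAAC, and -1.43 and -2.63 for m7G-depleted SPAAC and m7G-depleted CuAAC against mock mRNA.

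**Figure D5:**
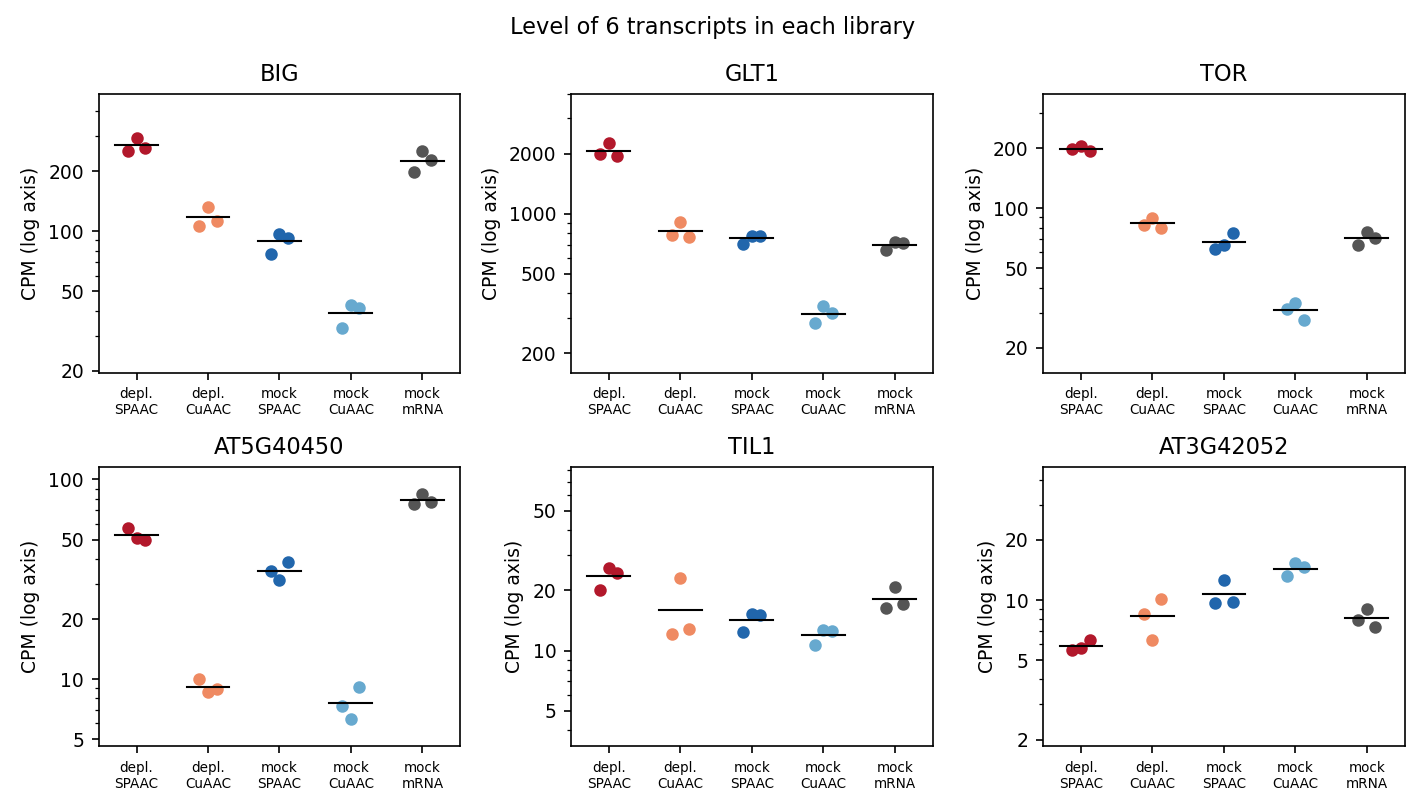
CPM of 6 members in each library on a log axis, by group, with the group mean as a bar and "depl." for m7G-depleted. BIG and GLT1 show the pattern of most coding members, with m7G-depleted SPAAC above mock SPAAC and mock CuAAC lowest. AT5G40450 has both CuAAC groups far below both SPAAC groups, the groups of TIL1 lie closer together, and AT3G42052 runs the other way, lowest in m7G-depleted SPAAC and highest in mock CuAAC.

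AT2G42270, the lesser BRR2 copy, was also called with length and GC offsets. In mock CuAAC it had 1.35, 1.57 and 1.43 CPM against 12.5, 18.4 and 13.3 CPM in mock mRNA, and these groups were far apart. The change was -3.30 ± 0.24 (adjusted p = 4.2e-10), and with length and GC offsets it was -1.77. AT3G50370, an uncharacterised protein of 7367 nt, has no opposite-strand overlap and was not called after depletion in SPAAC. It averaged 159 ± 9.26 CPM in m7G-depleted SPAAC and 89.1 ± 9.04 CPM in mock SPAAC, or 0.84 ± 0.10, under a 2-fold change.

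With TMM scaling and no offsets, none of the 4 members without a protein product was called in any of the 9 comparisons by edgeR. The pseudogene AT3G42052, which has no intron, had 5.63, 5.74 and 6.34 CPM in m7G-depleted SPAAC and 9.71, 12.7 and 9.78 CPM in mock SPAAC. In CuAAC it had 8.48, 6.28 and 10.1 CPM in m7G-depleted and 13.2, 15.3 and 14.7 CPM in mock libraries, and mock mRNA had 7.90, 9.02 and 7.34 CPM. The m7G-depleted libraries were below the mock libraries without overlap in both chemistries. Its changes were -0.86 ± 0.16 in SPAAC (adjusted p = 8.6e-05) and -0.79 ± 0.17 in CuAAC (adjusted p = 0.00052), under 2-fold but opposite in sign to those of the coding members. It was also the highest member in mock CuAAC over mock mRNA, at 0.84 ± 0.18 (adjusted p = 0.00069). There AT3G42052 was called higher under library totals, at 1.46, and with length and GC offsets, at 2.30. With length and GC offsets it was called lower after depletion, at -2.12 in SPAAC and -1.92 in CuAAC.

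The other pseudogenes, AT1G47860 and AT3G60965, are likewise intronless and averaged 4.72 ± 0.302 and 5.63 ± 0.464 CPM in m7G-depleted SPAAC and 4.65 ± 0.292 and 4.01 ± 0.640 CPM in mock SPAAC. The noncoding RNA AT2G24755 averaged 21.1 ± 0.804 CPM in m7G-depleted SPAAC, 22.5 ± 1.45 CPM in m7G-depleted CuAAC, 15.8 ± 1.42 CPM in mock SPAAC, 13.3 ± 0.612 CPM in mock CuAAC and 13.3 ± 3.52 CPM in mock mRNA. It overlaps opposite-strand genes over 6284 nt. Its 3286 counts over all libraries stand beside 3161 for the opposite-strand pseudogene AT2G24760, so its level cannot be told apart from that of its partner. The summed exon length of AT2G24755 joins several transcripts, of which the longest is 4946 nt.

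Of the 69 members, 64 have a single annotated transcript of 7000 nt or more. Of these 64, 56 rose after m7G depletion in SPAAC and 53 in CuAAC, and 57 were called lower in mock CuAAC than in mock mRNA. By annotated start base, of 28 members that begin with A, 22 were called higher after depletion in SPAAC, with a median of 1.41. Of 41 that do not, 37 were called higher, with a median of 1.43. The members that begin with A include the pseudogenes AT1G47860, AT3G42052 and AT3G60965, and the others include the noncoding RNA AT2G24755. None of these was called, so the counts by start base mix gene types.

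Genes on either side of the length limit are given as a description. Just inside it, EMB2016 of 7041 nt changed after depletion in SPAAC by 1.30 ± 0.14, AT3G24880 of 7062 nt by 1.23 ± 0.13 and MBD9 of 7073 nt by 1.72 ± 0.14. Just outside it, SWEETIE of 6999 nt changed by 1.67 ± 0.11 and GSL03 of 6993 nt by 1.59 ± 0.09, while the pseudogene AT2G24750 of 6985 nt had 0.75 ± 0.41. In mock CuAAC against mock mRNA the 3 inside had -1.47 ± 0.16, -1.60 ± 0.18 and -1.81 ± 0.16. The 3 outside had -1.23 ± 0.12, -1.68 ± 0.10 and -1.83 ± 0.86.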

How the data were processed

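Read counts per gene were deposited by the authors for 15 libraries, with gene length. Tools listed, without roles, in the submitters' processing notes are featureCounts 2.0.0, STAR 2.7.3a and DESeq2. Their genome build was not given in the sources used here. Gene types, introns and start sequences came from TAIR10.1 RefSeq, which holds 99.21% of the 37361 identifiers.

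From the deposited counts, edgeR 4.0.16 (R 4.3.3, TMM scaling, robust quasi-likelihood test, all 15 libraries in 1 fit by group) gave Benjamini-Hochberg adjusted p over 21456 genes. Replicates may be technical, so p-values measure the spread between these libraries. Same-numbered libraries deviated together in 30 of 30 pairs (correlation 0.18 to 0.76 over 10704 genes), so the numbers pair them. Named genes were the 6 longest, the 6 most abundant per kb in mock mRNA, the 3 highest and 3 lowest of at least 5 CPM in 6 comparisons, those at the length limit, and up to 3 per role list. Members, lists and tests were chosen with earlier results of these data known. Alternatives were other scalings, tools, filters, offsets, a replicate block and leaving out libraries.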

Additional observations from a re-analysis of the deposited data

How the results depend on the processing

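Replicate number as a block, which pairs libraries of one number, gave 20, 61, 52, 59, 57, 53, 17, 16 and 0 members called and changed no direction. The order is mock SPAAC and mock CuAAC against mock mRNA, SPAAC over CuAAC in mock RNA, depletion in SPAAC and in CuAAC, SPAAC over CuAAC in m7G-depleted RNA, m7G-depleted SPAAC and CuAAC against mock mRNA, and the difference of depletion effects. Leaving out 1 library at a time gave 17 to 21, 59 to 60, 40 to 58, 58 to 60, 48 to 59, 51 to 61, 16 to 21, 14 to 19 and 0 to 0. A test against a fold of 2 gave 5, 14, 28, 18, 5 and 6 in mock SPAAC against mock mRNA, SPAAC over CuAAC in mock RNA, depletion in CuAAC, SPAAC over CuAAC in m7G-depleted RNA, and m7G-depleted SPAAC and CuAAC against mock mRNA. Library totals gave 2 members lower in mock SPAAC, 53 higher in m7G-depleted SPAAC and 3 lower in m7G-depleted CuAAC, each against mock mRNA. Length and GC offsets, with and without the block, gave 1, 5, 1, 0, 0, 1, 0 and 3 in the first 8 comparisons in the direction reported. In the opposite direction they gave 0, 6, 2, 3, 5, 3, 6 and 1. By construction these offsets remove what genes of one length share. GC offsets alone, DESeq2, its size factors, no filter on low counts, coding genes alone and the compared groups alone kept the counts within 1.5 times. As a share of all counts the members held 0.966% in m7G-depleted SPAAC and 0.316% in mock mRNA. Without GLT1, an alternative chosen after seeing the data, the shares were 0.767, 0.307, 0.285, 0.114 and 0.441% in m7G-depleted SPAAC, m7G-depleted CuAAC, mock SPAAC, mock CuAAC and mock mRNA.

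Length and GC offsets turned the sign of some printed log2 fold changes, shown here relative to genes of like length and GC. In m7G-depleted SPAAC over mock SPAAC these were AT1G02080 -0.17, AT1G48090 -0.17, UPL1 -0.28, UPL2 -0.21, AT2G45540 -0.11, BIG -0.34 (-0.35 with the block), AT3G24880 -0.023 (-0.021 with the block) and PHOT2 -0.20 (-0.21 with the block). In mock CuAAC over mock mRNA these were TIL1 1.26 (1.24 with the block), BIG 0.13 (0.12 with the block), EMB2016 0.030 (0.025 with the block), AT5G23110 0.39 (0.41 with the block) and GLT1 0.46. In m7G-depleted CuAAC over mock CuAAC these were AT1G16800 -1.19, BIG -0.24 and AT5G40450 -1.05 (-1.04 with the block). PHOT2 had 0.99 after depletion in SPAAC with GC offsets alone, and lost its call. Calls were gained without 1 library by ATR (depletion in CuAAC, up to 1.06), AT2G42270 (depletion in SPAAC, 1.01) and AT1G48090 (SPAAC over CuAAC, up to 1.16 in m7G-depleted and 1.03 in mock RNA). Median counts per member ran from 122 to 1006 per library, and in 1 mock CuAAC library 4 members had under 10 counts, which limits the precision of the rarest.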
